A study of Thermothelomyces thermophilus with 14 samples.

Results

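The genes described here were low in mycelium given cellobiose, cellobiose with xylobiose, or glucose with xylose, and high in mycelium given xylobiose alone or no carbon source. Of the 9110 genes in the count table, 28 belonged to them. A gene was taken when its lowest level over the 4 libraries with xylobiose or no carbon was at least 10 CPM (read counts scaled to a common library size, with TMM factors) and at least 3 times its highest level over the 6 libraries of the other 3 media. Levels in the 10 plate libraries therefore chose the genes, and the difference between these 2 sides is given below as a description, with no test. The rule also names 3 loci to be left out (MYCTH_2303011, MYCTH_95427 and MYCTH_80312), and none of them met it, with ratios of 0.212, 1.14 and 0.0982. The tables used here pair no product names with the locus tags, so the genes are called by locus tag and no role is given to any of them.

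All libraries came from wild-type Myceliophthora thermophila ATCC 42464, a heat-loving filamentous fungus that grows on plant biomass, 4 h after pregrown mycelium was moved to fresh Vogel's salts. In 24-well plates, with 5 mL of medium, G2 mycelium had cellobiose at 2%. G2X2 had the same cellobiose plus xylobiose, also at 2%. GX had 2 monosaccharides, glucose and xylose, at 1% apiece. X2 had xylobiose alone at 2%, and NoCarbon2 had no carbon source. In 250 mL flasks, with 100 mL of medium, the groups were XA (1% Avicel, a microcrystalline cellulose, and 1% xylan) and Xylan (2% xylan). Each group had 2 libraries, 14 in all, of 17992946 to 25254924 counts, and no replicate pair was close enough to be the same library. The labels do not say whether replicates were separate cultures, so the tests measure only the spread between these libraries, which may be technical. No library from before the transfer was analysed here, so a gene called low with a sugar is low relative to NoCarbon2 and X2, not relative to the pregrown mycelium.

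Filamentous fungi reduce the expression of many genes for the use of other carbon sources when glucose is at hand, a control known as carbon catabolite repression, in which the zinc finger proteins of the CreA and CRE-1 family take part. Mycelium without a carbon source is known to switch on genes for scavenging and for recycling its own material. Cellobiose is a disaccharide of glucose, set free from cellulose and split into glucose by beta-glucosidases. Xylobiose is the matching disaccharide of xylose, set free from xylan and split by beta-xylosidases. The 3 plate media in which these genes were low held glucose or cellobiose, and are called glucose-containing below. XA, in flasks, also held glucose units, as cellulose, and was not used to choose the genes. No cause was tested.

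The gap between the 2 sides was wide for most of the genes. Averaged over libraries, levels in X2 and NoCarbon2 were 4.91 to 90.0 times those in G2, G2X2 and GX, with a median of 20.9, and 21 of the 28 genes were over 10-fold apart. The genes together took 0.0566% to 0.132% of all counts in the 6 glucose-containing libraries, against 0.975% to 2.23% in the 4 libraries with xylobiose or no carbon. In the flask libraries they took 0.448% to 0.856%. Part of each share came from 5 neighbouring genes, described below. Those 5 took 0.0214% to 0.0864% of all counts in the glucose-containing libraries and 0.489% to 1.64% in X2 and NoCarbon2. Their share in the flask libraries was 0.328% to 0.726%. In RNA from whole mycelium, fewer cells with a transcript and less of it per cell cannot be told apart. Mean levels of single genes ran from 0.817 to 164 CPM in the glucose-containing libraries, against 25.3 to 2855 CPM in X2 and NoCarbon2.

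**Figure D1:**
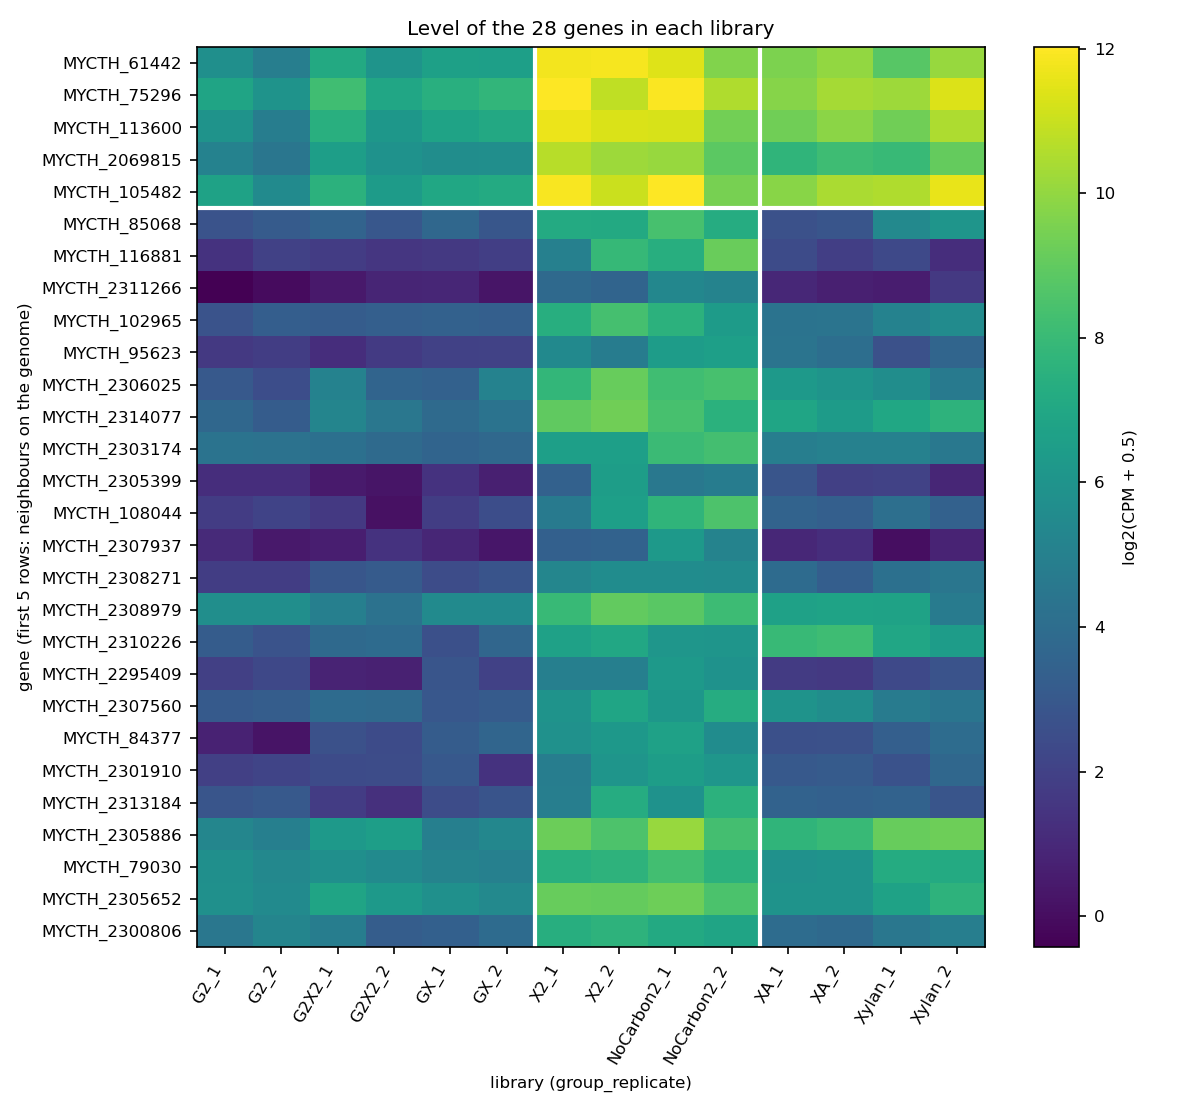
Level of each of the 28 genes (rows, locus tags) in each of the 14 libraries (columns, group and replicate), as log2(CPM + 0.5) by colour. The 6 columns left of the first white line (G2, G2X2, GX) are darker than the 4 columns of X2 and NoCarbon2 in every row, which is how the genes were chosen; the 4 flask columns on the right were not used to choose them and lie in between for many genes.

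The widest separation between single libraries was that of MYCTH_85068. It stood at 6.36 and 8.36 CPM in G2, 11.1 and 7.23 CPM in G2X2 and 12.6 and 6.98 CPM in GX, against 147 and 141 CPM in X2 and 341 and 155 CPM in NoCarbon2. Its lowest high library was thus 11.2 times its highest low one, while the 3 glucose-containing media overlapped with each other. The gene with the largest fold between means, 90.0, was MYCTH_116881, at 2.09 to 3.48 CPM over the 6 glucose-containing libraries, against 31.3 and 238 CPM in X2 and 168 and 572 CPM in NoCarbon2. Its high libraries differed by far more than its low ones.

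MYCTH_2311266 was nearly silent on the glucose side, at 0.243 to 1.35 CPM over the 6 libraries, against 13.8 and 11.5 CPM in X2 and 40.4 and 35.3 CPM in NoCarbon2. MYCTH_102965 stood at 6.16 to 10.4 CPM over the 6 libraries, against 168 and 321 CPM in X2 and 189 and 84.5 CPM in NoCarbon2. MYCTH_2306025 varied more on the low side, at 7.76 and 5.15 CPM in G2, 33.6 and 11.6 CPM in G2X2 and 10.4 and 33.4 CPM in GX, against 222 and 556 CPM in X2 and 293 and 333 CPM in NoCarbon2. Of these 3 genes, MYCTH_2311266 had both X2 libraries below both NoCarbon2 libraries, and the libraries of the other two overlapped.

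Just inside the ratio of 3 were MYCTH_2300806 (37.4 CPM in the highest glucose-containing library, against 113 CPM in the lowest of the other side, a ratio of 3.02) and MYCTH_2305652 (114 against 359.7 CPM, 3.14), and just outside were MYCTH_109897 (59.9 against 159 CPM, 2.66) and MYCTH_2302526 (26.4 against 68.8 CPM, 2.61). Just inside the level of 10 CPM were MYCTH_2307937 (10.1 CPM) and MYCTH_2305399 (10.2 CPM), and just outside were MYCTH_2305882 and MYCTH_74402, each at 9.84 CPM with ratios of 3.97 and 4.49. MYCTH_2305882 overlaps the chosen gene MYCTH_2305886 in the RefSeq table. The chosen genes MYCTH_2305399, MYCTH_2310226 and MYCTH_105482 also overlap another gene there, and since the strand setting of the counting is not given in the sources used here, reads of such partners cannot be told apart.

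A feature the rule did not use was position. In the gene order of the RefSeq assembly ASM22609v1, 5 of the 28 genes fell within 6 consecutive places on one chromosome: MYCTH_61442, MYCTH_75296 and MYCTH_113600 side by side, then MYCTH_2311112, which was not chosen, then MYCTH_2069815 and MYCTH_105482. None of the other 23 genes lay within 5 places of another chosen gene, and the 28 genes were spread over all 7 chromosomes. Genes chosen by other rules were also near each other, with no test of the difference: by the same measure 7 of 12 genes chosen by the opposite rule (high in the 6 glucose-containing libraries, low in X2 and NoCarbon2) and 12 of 46 genes at least 3 times higher in NoCarbon2 than in every other plate library lay near another of their own. MYCTH_2307937 belongs both to these 46 and to the 28. In fungi, genes that act in one pathway are often neighbours; the products of these 6 were not analysed here.

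The 5 neighbours were also the 5 genes with the highest mean CPM of the 28 in X2 and NoCarbon2, a count that is not scaled by gene length. MYCTH_105482 stood at 106 and 45.8 CPM in G2, 189.6 and 83.9 CPM in G2X2 and 127 and 146 CPM in GX, against 3877 and 2074 CPM in X2 and 4162 and 719.9 CPM in NoCarbon2. MYCTH_61442 stood at 53.3 and 29.1 CPM in G2, 142 and 64.3 CPM in G2X2 and 99.8 and 95.2 CPM in GX, against 3616 and 3662 CPM in X2 and 2715 and 798 CPM in NoCarbon2. The X2 libraries of MYCTH_61442 nearly coincided, whereas its NoCarbon2 libraries lay 3.40-fold apart. MYCTH_75296 stood at 61.8 to 299 CPM over the 6 glucose-containing libraries, against 4086 and 1850.3 CPM in X2 and 4008 and 1474 CPM in NoCarbon2. MYCTH_113600 stood at 28.5 to 171 CPM over the same 6 libraries, against 3184 and 2567 CPM in X2 and 2499.8 and 654 CPM in NoCarbon2. MYCTH_2069815 stood at 21.5 to 92.2 CPM, against 1639 and 1185 CPM in X2 and 1092 and 469.5 CPM in NoCarbon2. In all 5 the lowest of the 10 plate libraries was G2 replicate 2 and the lowest of the 4 high ones was NoCarbon2 replicate 2.

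The gene between them was also low with the glucose-containing sugars, over a smaller range. MYCTH_2311112 stood at 107 and 62.4 CPM in G2, 125 and 61.8 CPM in G2X2 and 150.4 and 180.4 CPM in GX, against 717 and 648 CPM in X2 and 592 and 270.4 CPM in NoCarbon2. Its means lay 4.86-fold apart, but the ratio of its closest libraries was 1.50, which is why it was not chosen. The next genes on either side were at or near 0: MYCTH_90577 did not pass 0.0485 CPM in any library, and MYCTH_2311121 reached 2.76 CPM in X2 replicate 2.

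**Figure D2:**
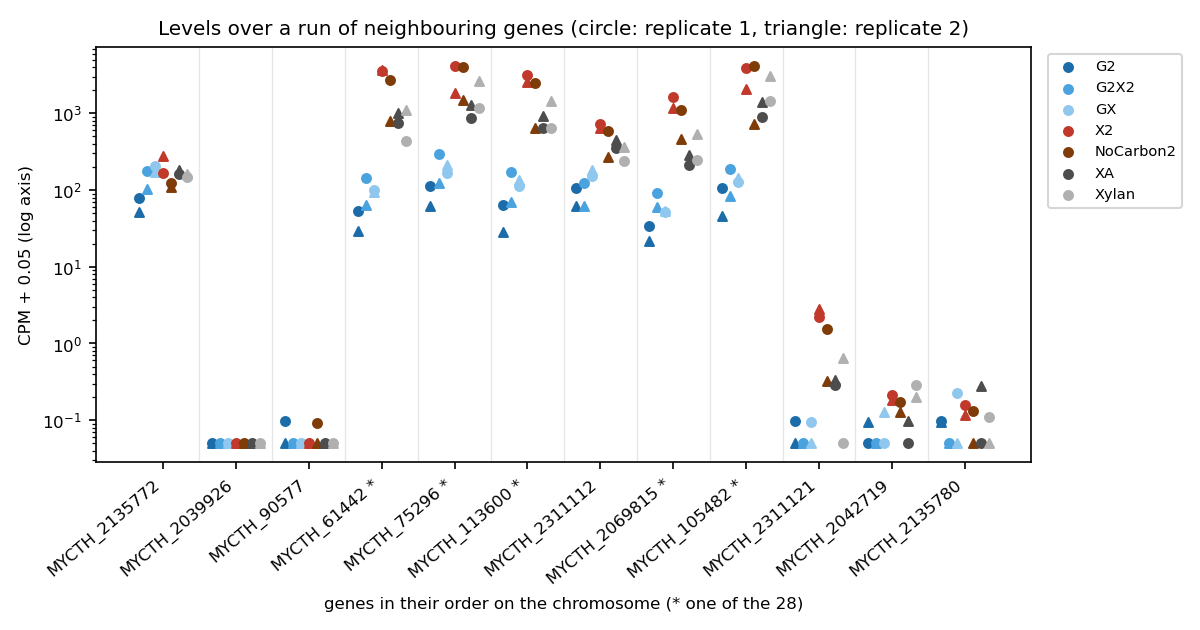
CPM + 0.05 (log axis) of 12 consecutive genes in their order on the chromosome, with groups by colour and replicates by shape. The 5 genes marked with a star, and MYCTH_2311112 among them, are high in X2 and NoCarbon2. The next genes at both ends are below 3 CPM. On the right this is MYCTH_2311121, which overlaps MYCTH_105482 and is also higher in X2 and NoCarbon2 than in the glucose-containing libraries.

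In 5 of the 7 groups, 1 replicate was higher than the other in all 5 neighbours. NoCarbon2 replicate 1 was 2.33 to 5.78 times replicate 2 in all 5 genes, and Xylan replicate 2 was 2.11 to 2.52 times replicate 1 in all 5. G2 and G2X2 replicate 1 were higher in all 5 (1.58 to 2.32 and 1.56 to 2.44 times replicate 2), and XA replicate 2 was higher in all 5 (1.34 to 1.53 times replicate 1). Over the 28 genes, by log2(CPM + 0.5), 10 were over 2-fold higher in NoCarbon2 replicate 1 and 3 in replicate 2, against 5.46% and 2.78% of all genes tested. In GX and X2 the 5 neighbours did not all move one way, with 4 of 5 higher in GX replicate 2 (replicate 1 at 0.787 to 1.05 times replicate 2) and 4 of 5 higher in X2 replicate 1 (0.988 to 2.21 times replicate 2). These gaps enter the spread of each test on the 5 genes.

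Some of the other genes were uneven between the X2 libraries instead. X2 replicate 2 was over 2-fold higher than replicate 1 in 7 of the 28 genes, against 3.36% of all genes tested, with the widest gaps at MYCTH_2305399 (8.74-fold), MYCTH_116881 (7.62-fold), MYCTH_2313184 (5.37-fold) and MYCTH_108044 (3.78-fold). MYCTH_2305399 stood at 10.2 and 88.9 CPM in X2 and at 22.7 and 27.1 CPM in NoCarbon2. MYCTH_2313184 stood at 29.2 and 157 CPM in X2 and at 59.0 and 188 CPM in NoCarbon2. In both genes the X2 and NoCarbon2 libraries overlapped.

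X2 was compared with NoCarbon2 among genes that the rule had chosen to be high in both. For 21 of the 28 genes no difference was called, 6 genes were lower in X2 and 1 was higher (edgeR, adjusted p under 0.05 over all 8567 genes tested). Over all genes tested, 19.5% were called lower and 19.1% higher. Both X2 libraries lay below both NoCarbon2 libraries in 8 of the 28 genes and above in 6, against 32.5% and 30.0% of all genes tested. The rule held all 4 of these libraries to a minimum but did not set the difference between the groups. Genes that xylobiose lowered to near their level in the glucose-containing media could not be among the 28. The counts thus do not show how xylobiose acts on such genes, and nothing is read from the shares. The median log2 fold change of the 28 genes was -0.17, against -0.02 over all genes tested; it was 0.34 without NoCarbon2 replicate 1.

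The 6 genes lower with xylobiose kept a level above that of the glucose-containing media, by the rule, and were not at their no-carbon level, so the name "not lowered by xylobiose" does not hold for them. MYCTH_2307937 stood at 10.1 and 10.9 CPM in X2, against 75.7 and 34.6 CPM in NoCarbon2 (log2 fold change -2.40 ± 0.45 SE, adjusted p = 0.00152). MYCTH_108044 stood at 25.3 and 95.9 CPM in X2, against 213 and 367 CPM in NoCarbon2 (-2.26 ± 0.58, adjusted p = 0.00974); leaving out NoCarbon2 replicate 2 took the adjusted p to 0.0648. MYCTH_2303174 stood at 97.4 and 95.4 CPM in X2, against 264 and 318 CPM in NoCarbon2 (-1.59 ± 0.20, adjusted p = 8.56e-05). In each of these 3 genes both X2 libraries were below both NoCarbon2 libraries. The others were MYCTH_2311266 (-1.58 ± 0.39, adjusted p = 0.00691), MYCTH_95623 (-1.36 ± 0.31, adjusted p = 0.00454) and MYCTH_2295409 (-1.18 ± 0.29, adjusted p = 0.00664).

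The single gene higher with xylobiose was MYCTH_2314077, at 514 and 648 CPM in X2, against 335 and 183 CPM in NoCarbon2 (1.16 ± 0.35, adjusted p = 0.0184). That call was lost without X2 replicate 2 (0.98, adjusted p = 0.103) or NoCarbon2 replicate 2 (0.79, adjusted p = 0.135), which left 0 genes higher, while 3 genes were called higher without X2 replicate 1 and 6 without NoCarbon2 replicate 1. Over all genes the higher calls numbered 1188 without X2 replicate 2, 1185 without NoCarbon2 replicate 2, 1481 without X2 replicate 1 and 1761 without NoCarbon2 replicate 1, in place of 1640. The closest to the threshold among the genes not called was MYCTH_2310226, at 103 and 132 CPM in X2 and 68.6 and 67.5 CPM in NoCarbon2 (adjusted p = 0.0520). Of the 5 neighbours none was called in edgeR, with 0 at an unadjusted p under 0.05 and 0 in DESeq2. Of all genes tested in edgeR, 2029 were higher and 2134 lower at an unadjusted p under 0.05. DESeq2 called 1753 of all genes higher and 1857 lower. MYCTH_61442 had a log2 fold change of 1.05 (95% interval -0.17 to 2.27) and MYCTH_105482 one of 0.29 (-1.21 to 1.78).

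**Figure D3:**
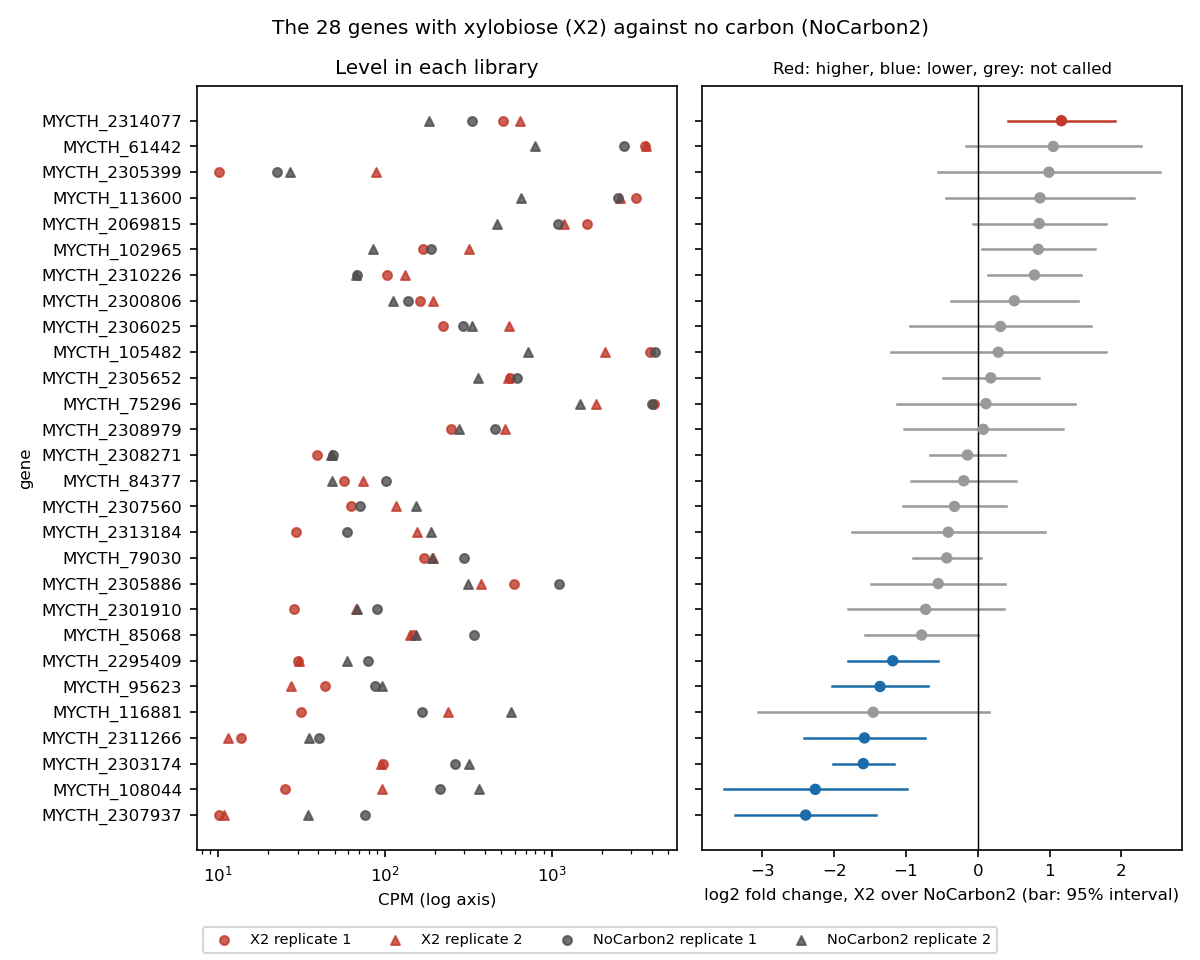
Left, CPM (log axis) of the 28 genes in the 2 X2 and 2 NoCarbon2 libraries; right, log2 fold change of X2 over NoCarbon2 with its 95% interval (edgeR). The 6 genes in blue were lower in X2, and MYCTH_2314077, in red, was higher. MYCTH_116881, in grey among the blue genes, was not called (-1.46, adjusted p = 0.137, edgeR). The intervals of most genes not called span 0.

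Within the low side, G2X2 was compared with G2, which had an equal dose of cellobiose, among genes that the rule had held low in both. The mixture held more sugar in total, which cannot be told apart from the presence of xylobiose. The chosen genes stayed low in the mixture, by the rule, and 4 were higher and 1 lower than with cellobiose alone (edgeR), while 8.23% of all genes tested were called higher and 7.04% lower. The median log2 fold change was 0.60 over the 28 genes and 0.02 over all genes tested, and DESeq2 called 8 of the 28 genes and 901 of all genes higher, in place of 705 of all genes in edgeR. Both G2X2 libraries lay above both G2 libraries in 14 of the 28 genes and below in 6, against 32.6% and 30.5% of all genes tested. The rule capped all 4 libraries below the X2 and NoCarbon2 minimum without setting their difference. A gene brought back to its X2 level in the mixture could not be among the 28. The calls, median and shares therefore cannot answer whether xylobiose restores such genes. The values over all genes are given as background and nothing is read from them. MYCTH_84377 rose most, to 5.72 and 4.85 CPM in G2X2, against 1.21 and 0.678 CPM in G2 (2.49 ± 0.43, adjusted p = 0.00228). MYCTH_2314077 rose to 36.6 and 22.2 CPM in G2X2, against 12.7 and 8.63 CPM in G2 (1.47 ± 0.36, adjusted p = 0.0161). In both genes the G2X2 libraries lay above the G2 libraries, and under both X2 libraries, which the rule required. MYCTH_2069815 rose as well (1.45 ± 0.44, adjusted p = 0.0425), the single call among the 5 neighbours, and so did MYCTH_2308271 (1.34 ± 0.27, adjusted p = 0.00513).

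Fewer calls were made with a library left out, among these genes and over all genes. Without G2 replicate 2, 1 of the 28 genes was called higher and 0 lower, and 175 higher over all genes in place of 705. Without G2X2 replicate 1, 2 were called higher and 2 lower, with 455 higher over all genes, and without G2X2 replicate 2, 4 were called higher and 0 lower, with 445 higher over all genes. The call of MYCTH_2069815 was lost without any one of the 4 libraries (adjusted p from 0.0564 to 0.29) and with the replicate number as a block (adjusted p = 0.0515) or upper-quartile scaling (adjusted p = 0.0506). That of MYCTH_2314077 was lost without G2X2 replicate 1 (1.06, adjusted p = 0.13) or G2 replicate 2 (adjusted p = 0.174), and that of MYCTH_2308271 without G2 replicate 2 (1.35, adjusted p = 0.0583, with the fold change nearly as before). The gene that fell was MYCTH_2295409, at 1.24 and 1.14 CPM in G2X2, against 3.35 and 4.25 CPM in G2 (-1.67 ± 0.35, adjusted p = 0.00681; lost without G2X2 replicate 2 or G2 replicate 2, adjusted p = 0.0529 and 0.0706).

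**Figure D4:**
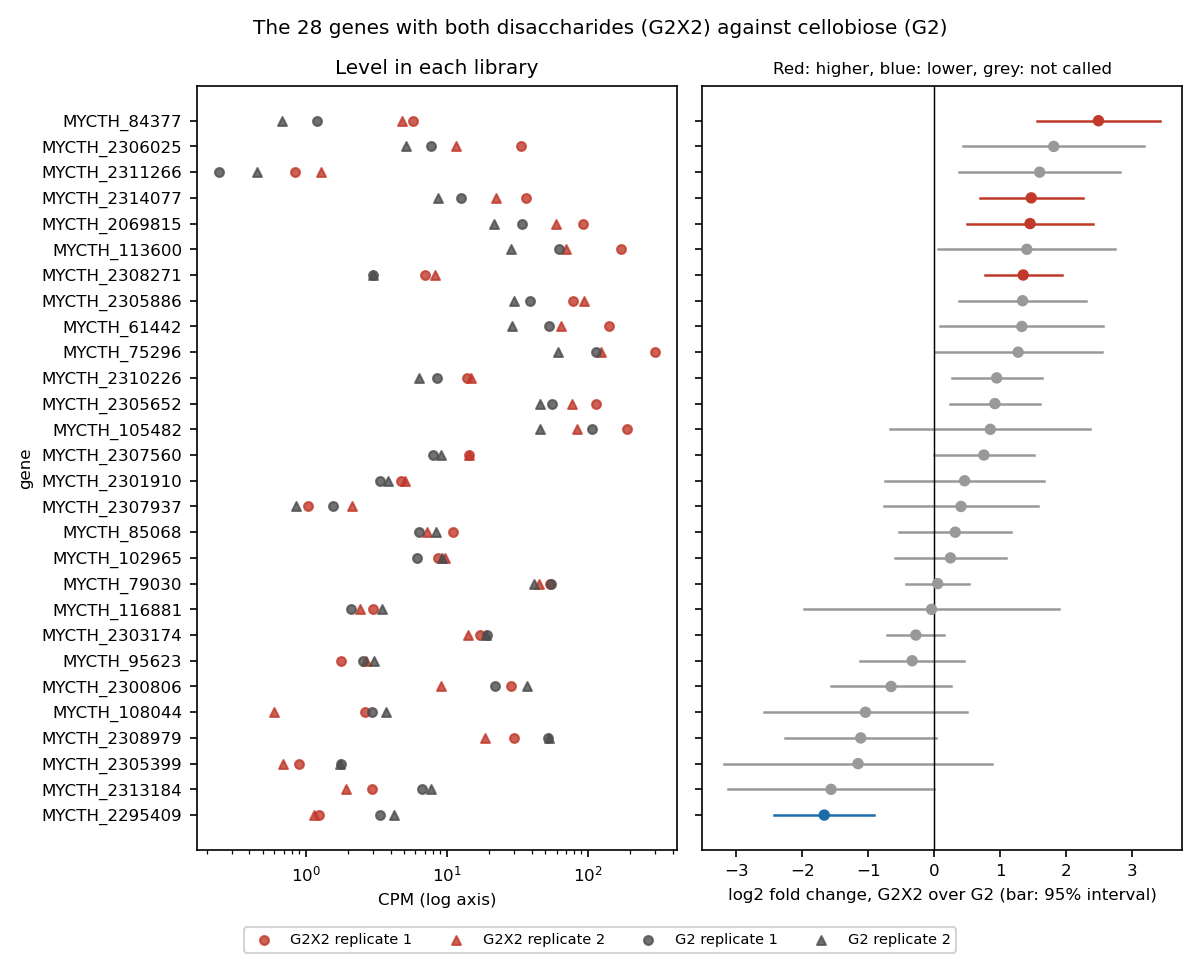
Left, CPM (log axis) of the 28 genes in the 2 G2X2 and 2 G2 libraries; right, log2 fold change of G2X2 over G2 with its 95% interval (edgeR). The 4 genes in red were higher in the mixture, with MYCTH_84377 at the top, and MYCTH_2295409, in blue, was lower.

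Cellobiose and the monosaccharides were compared at an equal total of 2% sugar. The media differed in the amount of glucose units, in xylose, and in disaccharide against free sugars, which cannot be told apart. Among the 28 genes 2 were lower in G2 than in GX and 0 were higher (edgeR), against 5.87% lower and 4.62% higher over all genes tested. At an unadjusted p under 0.05 in edgeR, 6 were lower and 3 higher, against 1050 and 1042 of all genes. DESeq2 called 3 lower and 2 higher, against 711 and 584 of all genes. Both G2 libraries lay below both GX libraries in 12 genes and above in 5, against 32.0% and 37.0% of all genes tested. The rule capped these 4 libraries in the same way, and again nothing is read from the shares. MYCTH_84377 stood at 1.21 and 0.678 CPM in G2, against 8.80 and 11.8 CPM in GX (-3.45 ± 0.43, adjusted p = 0.000348). Among the 3 glucose-containing media this gene was lowest with cellobiose alone, with no overlap of libraries between any 2 of the media. MYCTH_2308271 was lower as well (-0.92 ± 0.27, adjusted p = 0.0461), a call lost without any one of the 4 libraries (adjusted p from 0.093 to 0.288) and with the replicate block (adjusted p = 0.0631).

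The flask libraries were not used to choose the genes. XA against Xylan addressed how the genes stood when 1% of the 2% xylan was replaced by cellulose. Less xylan and added cellulose cannot be told apart in this comparison. Of the 28 genes, 8 were lower and 3 higher in XA, and 17 were not called (edgeR). Over all genes tested 17.1% were called lower and 14.8% higher, so that 28.6% lower and 10.7% higher among 28 genes stand beside those shares. The median log2 fold change was -0.49 over the 28 genes and 0.01 over all genes tested. Both XA libraries lay below both Xylan libraries in 11 genes, and above in 5, against 37.0% and 39.0% of all genes tested.

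MYCTH_85068 fell most, to 5.91 and 6.61 CPM in XA, against 43.0 and 67.0 CPM in Xylan (-3.14 ± 0.40, adjusted p = 0.000217). Its XA libraries lay below its highest library in the glucose-containing plates, and its Xylan libraries between the low and the high plate libraries. MYCTH_79030 stood at 57.2 and 62.0 CPM in XA, against 152 and 146 CPM in Xylan (-1.32 ± 0.22, adjusted p = 0.00111). For these 2 genes the fall was called without any one of the 4 libraries and in every other setting tried. MYCTH_2305652 stood at 63.0 and 62.2 CPM in XA, against 109 and 195 CPM in Xylan (-1.28 ± 0.31, adjusted p = 0.00919; lost without either XA library or Xylan replicate 2, adjusted p = 0.0625, 0.0642 and 0.111). MYCTH_2305886 stood at 212 and 249 CPM in XA, against 557 and 628 CPM in Xylan (-1.36 ± 0.44, adjusted p = 0.0321; lost without any one of the 4 libraries, 0.0663 to 0.168).

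The other 4 falls were smaller or nearer the threshold. MYCTH_84377 fell by 1.15 on the log2 scale (adjusted p = 0.0282), MYCTH_102965 by 1.05 (adjusted p = 0.0463), MYCTH_2295409 by 0.95 (adjusted p = 0.0366) and MYCTH_2308271 by 0.70 (adjusted p = 0.0489). Each was lost without at least 3 of the 4 flask libraries left out one at a time, and MYCTH_102965, MYCTH_2295409 and MYCTH_2308271 also with upper-quartile scaling (adjusted p = 0.0563, 0.0543 and 0.0849). The replicate block also ended the calls of MYCTH_102965 (adjusted p = 0.0575) and MYCTH_2308271 (adjusted p = 0.067), and that of MYCTH_2308271 was lost with no filter (0.0508) and with flask libraries alone (0.0903). With upper-quartile scaling 5 of the 28 genes were called lower, and 1265 of all genes in place of 1461. With single libraries left out, 3 were called lower without XA replicate 1, 2 without XA replicate 2, 5 without Xylan replicate 1 and 2 without Xylan replicate 2. Over all genes 732, 666, 1204 and 845 were then called lower, in place of 1461.

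MYCTH_2310226, MYCTH_2307560 and MYCTH_95623 rose in XA. With any single flask library left out, fewer of all genes tested were called higher. MYCTH_2310226 stood at 247 and 280.2 CPM in XA, against 122 and 87.1 CPM in Xylan (1.33 ± 0.30, adjusted p = 0.00582; adjusted p = 0.0682 without Xylan replicate 2). Its flask libraries were at or above its lowest library in X2 and NoCarbon2, so it was high in both flask media. MYCTH_2307560 stood at 62.3 and 50.8 CPM in XA, against 26.3 and 20.8 CPM in Xylan (1.27 ± 0.34, adjusted p = 0.0146; lost without XA replicate 1 or Xylan replicate 2, adjusted p = 0.0908 and 0.115). MYCTH_95623 stood at 19.8 and 16.3 CPM in XA, against 5.90 and 11.9 CPM in Xylan (1.02 ± 0.32, adjusted p = 0.0274; lost without either XA library or Xylan replicate 1, adjusted p = 0.149, 0.0643 and 0.174, and with flask libraries alone, 0.0639).

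None of the 5 neighbours was called in XA against Xylan by edgeR, with 0 at an unadjusted p under 0.05 and 0 by DESeq2. Of all genes tested in edgeR, 1819 were higher and 1910 lower at an unadjusted p under 0.05. DESeq2 called 1409 of all genes higher and 1670 lower. MYCTH_105482 stood at 909 and 1392 CPM in XA, against 1467 and 3091 CPM in Xylan (log2 fold change -0.99 with a 95% interval from -2.49 to 0.52). MYCTH_61442 stood at 752 and 1021 CPM in XA, against 436 and 1099 CPM in Xylan (0.21, interval from -0.998 to 1.41). In 4 of the 5 genes the XA and Xylan libraries overlapped, and in MYCTH_105482 both XA libraries lay below both Xylan libraries.

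**Figure D5:**
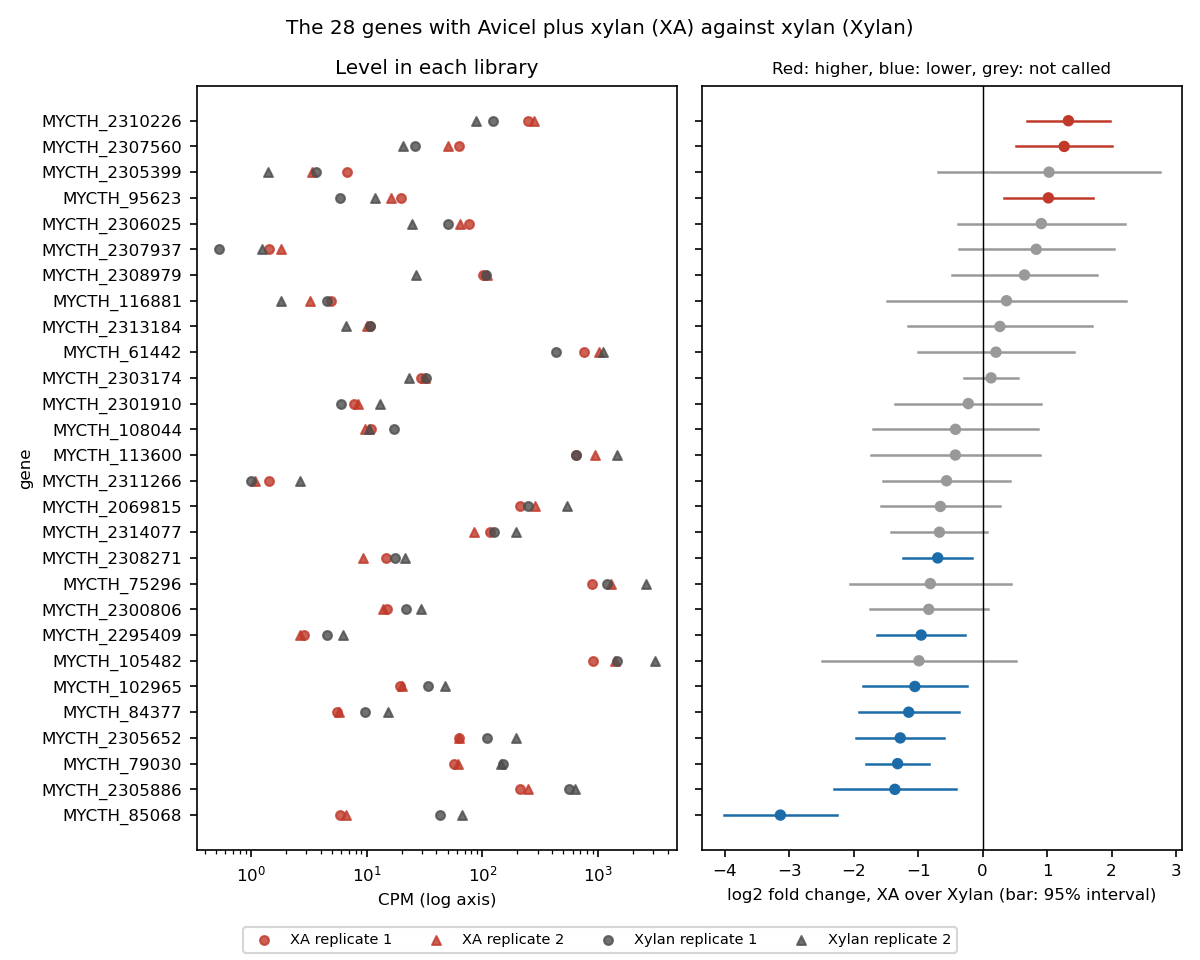
Left, CPM (log axis) of the 28 genes in the 2 XA and 2 Xylan libraries; right, log2 fold change of XA over Xylan with its 95% interval (edgeR). The 8 genes in blue were lower in XA, with MYCTH_85068 furthest at -3.14, and the 3 in red were higher; 17 were not called.

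Set beside the plates, flask levels lay between the 2 sides for most genes in XA and for fewer in Xylan. In XA both libraries lay between the highest glucose-containing library and the lowest library of X2 and NoCarbon2 for 16 genes, at or under the lower bound for 6, at or over the upper bound for 2, and across a bound for 4. In Xylan the same counts were 8 between, 3 low, 3 high and 14 across a bound. Flasks and plates differed in vessel, volume and polymer or soluble sugar, which cannot be told apart, so no test was made. The 3 genes high in Xylan were MYCTH_2310226, MYCTH_105482 and MYCTH_2305886, and MYCTH_2307937, MYCTH_2295409 and MYCTH_2300806 were low in both flask groups.

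The gene with the largest fold between the plate sides was far under its X2 and NoCarbon2 levels in the flasks. MYCTH_116881 stood at 4.88 and 3.21 CPM in XA and at 4.55 and 1.80 CPM in Xylan, under its 31.3 CPM minimum in X2, with 1 library of each flask group above its highest glucose-containing library of 3.48 CPM. MYCTH_2311266 was also far under its 11.5 CPM minimum in X2, at 1.42 and 1.07 CPM in XA and 0.992 and 2.65 CPM in Xylan. MYCTH_2307937 stood at 1.42 and 1.82 CPM in XA and 0.525 and 1.25 CPM in Xylan, all under its highest glucose-containing library of 2.13 CPM. By contrast MYCTH_2314077, the gene higher with xylobiose, stood at 117 and 84.8 CPM in XA and 125 and 195 CPM in Xylan, above its 36.6 CPM maximum with glucose-containing sugars in all 4 flask libraries.

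A few genes differed between Xylan replicates in the direction opposite to the 5 neighbours. MYCTH_2308979 stood at 102 and 109 CPM in XA, against 108 and 26.5 CPM in Xylan, and at 18.7 to 53.0 CPM over the 6 glucose-containing libraries, against 249.8 to 525 CPM in X2 and NoCarbon2. MYCTH_2306025 stood at 76.3 and 64.5 CPM in XA, against 50.2 and 24.8 CPM in Xylan. In MYCTH_2306025 both XA libraries were higher than both Xylan libraries, without a call. Over the 28 genes Xylan replicate 2 was over 2-fold higher in 7 and replicate 1 in 4 by log2(CPM + 0.5), against 1.79% and 2.82% of all genes tested. MYCTH_2301910, the remaining gene, stood at 7.76 and 8.48 CPM in XA, against 5.95 and 12.9 CPM in Xylan, with 2.09 to 7.45 CPM over the glucose-containing libraries, against 28.7 to 89.9 CPM in X2 and NoCarbon2.

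Of the 6 genes with both X2 libraries above both NoCarbon2 libraries, 0 were called lower and 1 higher in XA. Of the 8 genes with both X2 libraries below, 2 were lower and 1 higher, and of the 14 with overlapping libraries, 6 were lower and 1 higher. Among the other 6018 genes with at least 10 CPM in all 4 X2 and NoCarbon2 libraries, 1243 (20.7%) were called lower and 961 higher in XA. The 12 genes of the opposite rule had 2 lower and 2 higher, and the 46 genes highest in NoCarbon2, MYCTH_2307937 among them, had 6 lower and 9 higher. No test of a difference between these sets was made.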

How the data were processed

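The values are counts of reads per gene, raw as the authors deposited them. Per the submitters' processing notes, the tools were TopHat2 2.0.8b and HTSeq 0.13.5, with no build, annotation or strand setting given in the sources used here. Groups came from the sample titles; the Avicel with xylan group is XA there and AX in the table. Of 9110 gene identifiers, 9087 matched a locus tag of ASM22609v1, used only for gene order. CPM used TMM factors over all genes.

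Tests used edgeR 4.0.16 in R 4.3.3: filterByExpr (8567 genes left), TMM, and a robust quasi-likelihood model with 7 group means over all 14 libraries (7 residual degrees of freedom). Benjamini-Hochberg adjustment ran over all genes tested in each of 4 comparisons, two-sided, threshold 0.05. DESeq2 1.42.0 was an alternative. The model was tested on simulated data. The genes and settings were chosen with earlier results of these data known. Genes are named by ratio, mean CPM, largest called changes, threshold neighbours and gene neighbours; the remaining names were added after their values were seen. Product names and sequence features were not used here. Depth was 17992946 to 25254924 counts per library.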

Additional observations from a re-analysis of the deposited data

How the results depend on the processing

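The rule gave 28 genes with DESeq2 size factors, 27 with upper-quartile scaling, 31 and 25 with minima of 5 and 20 CPM, 52 and 9 with ratios of at least 2 and 5, and 28 to 37 with single plate libraries left out. TMM over filtered genes, chosen after seeing the data, gave 28. Leaving out the 5 neighbouring genes, also chosen after seeing the data, moved the median log2 fold change in G2X2 against G2 to 0.316, with 0.604 over all 28, and in X2 against NoCarbon2 to -0.411, with -0.169 over all 28.

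Replicate numbers showed little pairing of the samples: 2 of 21 pairs of groups had a correlation of replicate differences over 0.1 (-0.194 to 0.236). The highest, 0.236, was that of X2 with NoCarbon2, a comparison tested here. With the replicate block, 6 genes were lower and 3 higher in XA, 6 lower and 1 higher in X2, 3 higher and 1 lower in G2X2, and 1 lower and 0 higher in G2 against GX. Over all genes, the block gave 1394 lower and 1168 higher in XA, and 1584 and 1569 in X2. It gave 560 lower and 623 higher in G2X2, and 446 and 335 in G2 against GX. Without the block, these were 1461 and 1270, 1668 and 1640, 603 and 705, and 503 and 396. With upper-quartile scaling 5 were lower in XA, and 1265 of all genes. The DESeq2 Wald test called 2 higher in X2, 8 higher in G2X2 and 2 higher in G2. Over all genes it called 1753, 901 and 584 higher. The cause was not tested.

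With single libraries left out, genes called in XA were 2 to 5 lower and 1 to 3 higher, in X2 6 to 8 lower and 0 to 6 higher, in G2X2 1 to 4 higher and 0 to 2 lower, and in G2 against GX 1 lower in each case. The X2 median log2 fold change ranged from -0.518 without X2 replicate 2 to 0.335, a reversed sign, without NoCarbon2 replicate 1, against -0.169 with all libraries. Of 25 calls, 9 held in all 10 settings; 197 of 250 calls by setting were kept and none changed direction. No scaling moved the median of all genes by over 0.1 on the log2 scale.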
